A study of Mus musculus with 20 samples.

Results

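The 10 genes described here are the 3 fibrinogen chain genes Fga, Fgb and Fgg, tissue factor (F3), the inter-alpha-trypsin inhibitor heavy chain Itih2, and the acute-phase genes Cp, Hp, Lcn2, Orm1 and Saa3. They were found by mouse symbol among 17104 genes with an Entrez identifier in any of 3 tables, and all 10 were listed in every table. Fga and Itih2 were chosen by their change between resistant and naive tumors, Fga for its fall and Itih2 for its rise. For both genes that change is therefore given as a description with no test, and they are tested only in Resist-Mac vs. Naive-Mac, whose libraries played no part in the choice. The other 8 genes were compared in all 4 comparisons, by limma where their mean reached 1 FPKM and otherwise by an exact permutation test alone.

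The tumor cells were MycCaP-Bo, a bone-homing derivative of the MycCaP prostate cancer line from a Myc-transgenic FVB mouse, selected by repeated passage in vivo and carrying luciferase and the fluorescent protein iRFP. They were injected into the heart of male FVB/N mice of 4 to 6 weeks, and all groups are bone metastases of this 1 line. Naive tumors received vehicle, and Resist tumors received enzalutamide, an anti-androgen drug, at 30 mg/kg each day by gavage for 18 days. Resist-Mac tumors received the same enzalutamide and, in the last 4 days, clodronate liposomes at 1 mg per mouse into a vein, given at a rate of 2 doses a week, which deplete macrophages. Naive-Mac is the name used here for tumors given clodronate liposomes without enzalutamide. They are taken here to have had the same clodronate dose, rate and last 4 days as Resist-Mac tumors. The study's text does not describe this sequenced group. Cells that were CD45- and iRFP+ were sorted, cells of 3 mice were pooled for each library, and each group had 5 libraries. Naive and Resist libraries share 1 table, whereas Resist-Mac and Naive-Mac libraries each have a table of their own. Each table is counted here as 1 batch, and the labels do not say whether it holds more than 1. In every comparison that crosses tables, batch and treatment cannot be told apart. Expression is in FPKM, in which reads are divided by transcript length and by the library's total, so levels of different genes can be set side by side, but the tables hold no read counts and depth is unknown.

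Fibrinogen is the soluble plasma protein that thrombin turns into the fibrin of a clot. It is assembled from alpha, beta and gamma chains, which are encoded by Fga, Fgb and Fgg, and it is made mainly by hepatocytes. There, IL-6 acting through STAT3 raises it during inflammation, and IL-1 acting through C/EBP and NF-kB raises other acute-phase proteins. Epithelial tumors can also transcribe plasma-protein genes, and tissue factor on a tumor cell is the usual trigger of coagulation around it.

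The labelled cell type was checked first. Krt8 averaged 317 FPKM and Cldn3 363 FPKM in naive libraries, while Krt18 at 0.052 FPKM and Cdh1 at 0.012 FPKM were near 0, and Pbsn and Spdef were at 0 or not listed in every group. The 12 hepatocyte markers summed to between 8.37 and 49.2 FPKM in any library, much of it transthyretin (Ttr), with albumin (Alb) at 0 or not listed in every group. The sum of 49.2 FPKM was that of Resist replicate 4, and the other Resist libraries reached at most 19.7 FPKM. The 11 megakaryocyte and platelet markers summed to at most 12.58 FPKM. The 16 neutrophil markers summed to between 189 and 1312 FPKM in naive libraries, 64.6 and 622 in Resist, 414 and 8917 in Resist-Mac, and 67.5 and 6245 in Naive-Mac, in spite of the CD45- gate, and none of the 10 members is among these markers. Markers of other cells also moved with the groups. The 14 macrophage and monocyte markers had median sums of 33.0 FPKM in naive, 21.8 in Resist, 201 in Resist-Mac and 249 in Naive-Mac libraries. Their highest sum was 813 FPKM, in Resist-Mac. Most of the sum was Lyz2, which averaged 38.1, 21.1, 304 and 223 FPKM in the same order of groups. Itgam averaged 1.54, 1.06, 5.03 and 1.58 FPKM, and Cd68 averaged 1.07, 1.47, 2.37 and 0.78 FPKM. The 10 erythroid markers summed to between 54.1 and 108 FPKM in naive, 107 and 200 in Resist, 131 and 311 in Resist-Mac, and 214 and 954 in Naive-Mac libraries, and the hemoglobin gene Hba-a1 passed the test in Resist vs. Naive at 0.78 (limma adjusted p = 0.0245). Their part in the changes below was not tested. In sorted cells a fall in a transcript can be fewer cells of a type or less RNA per cell, and these cannot be told apart.

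The sequence upstream of the start of 4 genes is shown because 3 of them are the neighboring fibrinogen genes, which did not move together, and Itih2 is the member that rose most. Each run holds the 250 bases before the RefSeq start in GRCm38.p6, written 5′ to 3′ on the strand of the gene, with matches to the searched motifs in capitals. Fga lies at chr3:83025903-83026152 on the + strand, Fgb at chr3:83049864-83050113 on the - strand, Fgg at chr3:83007474-83007723 on the + strand and Itih2 at chr2:10130684-10130933 on the - strand.
Fga: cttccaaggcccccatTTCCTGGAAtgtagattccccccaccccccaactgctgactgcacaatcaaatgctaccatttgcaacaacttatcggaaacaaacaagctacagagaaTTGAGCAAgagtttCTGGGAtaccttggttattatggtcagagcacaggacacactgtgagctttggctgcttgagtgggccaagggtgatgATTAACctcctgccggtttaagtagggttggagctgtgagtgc
Fgb: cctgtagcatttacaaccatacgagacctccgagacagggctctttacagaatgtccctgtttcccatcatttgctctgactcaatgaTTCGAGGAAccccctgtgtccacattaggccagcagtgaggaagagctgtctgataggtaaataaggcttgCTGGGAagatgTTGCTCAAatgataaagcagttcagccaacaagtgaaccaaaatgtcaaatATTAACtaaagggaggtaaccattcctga
Fgg: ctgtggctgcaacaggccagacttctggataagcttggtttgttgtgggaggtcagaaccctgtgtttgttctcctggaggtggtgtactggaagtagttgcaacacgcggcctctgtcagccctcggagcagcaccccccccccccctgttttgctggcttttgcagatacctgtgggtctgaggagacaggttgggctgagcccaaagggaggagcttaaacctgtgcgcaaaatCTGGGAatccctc
Itih2: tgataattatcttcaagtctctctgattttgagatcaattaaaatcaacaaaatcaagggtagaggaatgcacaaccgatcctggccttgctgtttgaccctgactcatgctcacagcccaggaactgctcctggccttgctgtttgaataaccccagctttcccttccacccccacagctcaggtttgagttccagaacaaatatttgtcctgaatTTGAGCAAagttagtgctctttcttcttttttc
The motifs were searched on both strands in a window that also held 50 bases after the start, and 32851 RefSeq promoters of the same length gave the background. CTGGGA, known as an IL-6 response element, occurs in 31.8% of all promoters, and it lay 121 to 116 bases before the start in Fga, 91 to 86 in Fgb and 13 to 8 in Fgg. Fgb held another match on the opposite strand, at bases 45 to 50 after the start, outside the run shown. TTCNNNGAA, the STAT motif, occurs in 8.3% of promoters and lay 234 to 226 bases before the start of Fga and 162 to 154 before that of Fgb. TTGCNNAA, a C/EBP motif found in 10.8% of promoters, lay 135 to 128 bases before Fga, 80 to 73 before Fgb and 33 to 26 before Itih2. GTTAAT, one side of the HNF1 motif and therefore part of any full HNF1 match, occurs in 7.1% of promoters and lay 43 to 38 bases before Fga and 29 to 24 before Fgb. Fgg held only CTGGGA in this window. The full HNF1 motif and the NF-kB motif had no match in any window of the 8 members with an entry, and Hp and Orm1 have none. A match is a string of letters and says nothing of a bound factor.

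In the RefSeq gene order of GRCm38.p6, Fgg, Fga and Fgb are direct neighbors among protein-coding genes, followed by Plrg1, a splicing factor gene. Plrg1 averaged 77.8 FPKM in naive and 73.9 FPKM in Resist libraries, a log2 change of -0.08 (limma adjusted p = 0.684), and the gene on the other side, Lrat, averaged at most 0.018 FPKM.

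In Resist vs. Naive, which asks how tumor cells differ once they grow under enzalutamide, the fibrinogen chains parted: Fgg fell and Fgb did not pass the test. Among the other members Cp rose and F3 fell, while Hp, Lcn2 and Saa3 did not pass. Of the 8 members other than Fga and Itih2, 7 reached a mean of 1 FPKM and were tested. Of these, 3 were called (limma adjusted p under 0.05, change over 1.5-fold), beside 6.35% of the 10119 genes tested. All members were listed with earlier results of these data known, and Fgg follows the chosen Fga, so this count is no independent test. Cp was the 1 member called higher, as were 5.25% of all genes, and Fgg and F3 were called lower, as were 1.11%. Orm1, at a mean under 1 FPKM, was not in the fit.

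**Figure D1:**
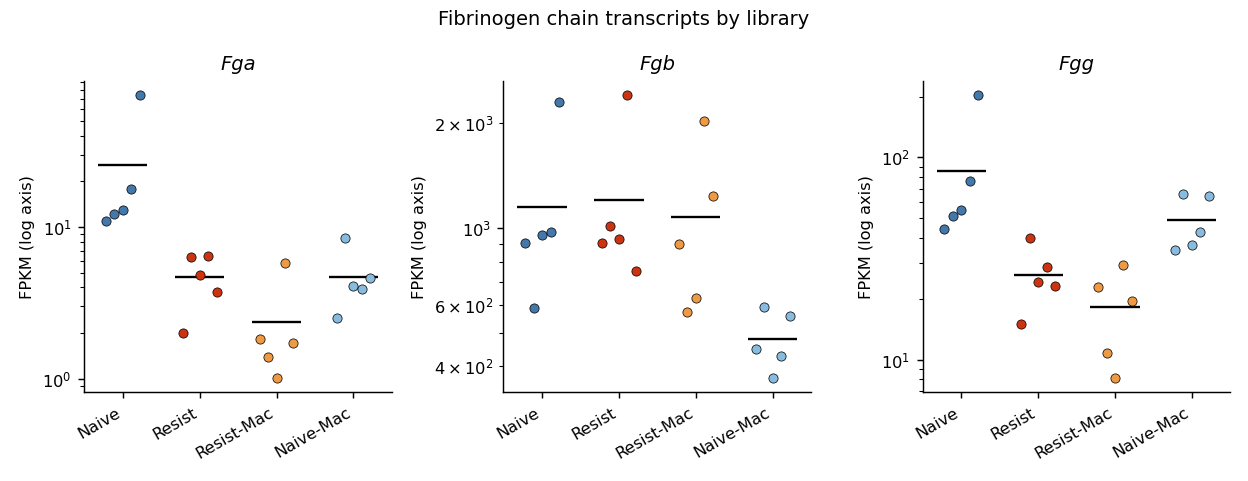
FPKM of Fga, Fgb and Fgg in each of 5 libraries per group, on log axes whose ranges differ between genes. Points are libraries in replicate order and the line is the arithmetic mean. Resist libraries lie below all naive libraries for Fga and Fgg but not for Fgb, and naive replicate 5 is the highest naive library in all 3 plots.

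Fga encodes the alpha chain. The naive libraries read 10.9, 12.09, 12.99, 17.78 and 73.74 FPKM in replicate order, and the Resist libraries 1.99, 6.35, 4.80, 6.48 and 3.72 FPKM. The groups did not overlap, which is part of why the gene was picked, and 1 naive library lay far above the other 4. The means were 25.5 ± 27.1 FPKM (SD, n = 5) in naive and 4.67 ± 1.88 FPKM in Resist tumors, and without naive replicate 5 the log2 difference went from -1.88 to -1.40.

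Fgg encodes the gamma chain. It read 44.24, 51.13, 54.97, 76.42 and 203.02 FPKM in naive libraries and 15.04, 39.72, 24.12, 28.83 and 22.99 FPKM in Resist libraries. Every Resist library lay below every naive library, and naive replicate 5 was again the highest. Fgg averaged 86.0 ± 66.5 FPKM in naive and 26.1 ± 9.07 FPKM in Resist tumors, 3.29-fold lower, with a log2 change of -1.49 ± 0.36 (SE) and a limma adjusted p of 0.0152. The exact permutation test gave p = 0.00794, the smallest that 5 against 5 can reach, and 0.0450 after Benjamini-Hochberg adjustment over the 34 such tests run. Without naive replicate 5 the change was -1.12 (limma adjusted p = 0.0105). Fgg is not independent of the choice of Fga: over the 10 naive and Resist libraries Fgg was the gene most like Fga of all genes tested (Pearson r = 0.991), with Lars at 0.918 and Apcdd1 at 0.904 also among the first 5. The r between deviations from the group means was 0.979 over these 10 libraries and 0.912 over all 20. Both genes share library, sort and table, and naive replicate 5 weighs on both values.

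Fgb encodes the beta chain and was the most abundant member in every library. The naive libraries read 906.65, 587.87, 951.98, 975.02 and 2310.61 FPKM and the Resist libraries 907.04, 1016.50, 927.68, 2409.99 and 750.94 FPKM. The ranges overlapped almost fully, with 1 very high library in each group, naive replicate 5 and Resist replicate 4. The means were 1146 ± 669 and 1202 ± 682 FPKM, with a log2 change of 0.09 ± 0.35 (limma adjusted p = 0.887). Its sign turned to -0.20 without Resist replicate 4 (limma adjusted p = 0.699) and to -0.11 without naive replicate 2 (limma adjusted p = 0.855). The genes most like Fgb over the 10 libraries were Pex11g (r = 0.940), Sec23b (0.935), Txndc11 (0.905), Hdlbp (0.890) and Cntnap2 (0.887), with neither Fga nor Fgg among the first 5.

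The ratio of 2 chains within a library does not depend on a factor that scales the whole library, but can still depend on transcript length and GC. It was added after the values of the chains had been seen. Fgb exceeded Fgg by 14.7 ± 4.05 times (SD, n = 5) in naive libraries, with a range of 11.4 to 20.5, and by 48.1 ± 23.7 times in Resist libraries, with a range of 25.6 to 83.6. The ratio was 3.07-fold higher in Resist tumors, a log2 difference of 1.62 ± 0.35, with no overlap of the groups (exact permutation p = 0.00794, adjusted over 4 ratio tests 0.0106). Because these libraries prompted the ratio and Fgg follows the chosen Fga, this p-value describes the gap and lends it no separate support. The log2 difference of the ratio was 1.54 without naive replicate 5.

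Resist-Mac vs. Naive-Mac sets enzalutamide against no enzalutamide in tumors that all received clodronate liposomes, in libraries that did not choose Fga or Itih2. Itih2, Fgb and Cp were called higher and Fga and Fgg lower in Resist-Mac tumors. These 5 of 10 members stand beside 46.2% of the 9760 genes tested, with 37.2% called higher and 9.0% lower. The count of members is therefore close to the background, and the median of all genes was itself 0.34 higher on the log2 scale in Resist-Mac libraries. With median-ratio scaling that median moved by -0.35, and the split of all called genes went from 3631 higher and 878 lower to 2303 higher and 2144 lower.

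Fgg read 22.87, 10.73, 8.09, 29.46 and 19.42 FPKM in Resist-Mac libraries and 34.75, 66.14, 37.04, 42.93 and 64.19 FPKM in Naive-Mac libraries. The groups did not overlap. Fgg was 2.71-fold lower, with a log2 change of -1.47 ± 0.31 (limma adjusted p = 0.000982), or -1.82 relative to the median of all genes. The exact permutation test gave p = 0.00794 (adjusted 0.0450).

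Fga read 1.82, 1.40, 1.01, 5.82 and 1.73 FPKM in Resist-Mac libraries and 2.51, 8.40, 4.07, 3.88 and 4.63 FPKM in Naive-Mac libraries. Resist-Mac replicate 4 lay inside the Naive-Mac range and the other 4 lay below it. The log2 change was -0.84 ± 0.32 (limma adjusted p = 0.0362), or -1.18 relative to the median of all genes, and the exact permutation test gave p = 0.127 (adjusted 0.254). The call was lost when any 1 of 7 libraries was left out, with a lowest change in size of -0.64 without Naive-Mac replicate 2, and the change was -1.13 without Resist-Mac replicate 4 (limma adjusted p = 0.00205).

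Fgb read 902.47, 574.20, 629.81, 2032.39 and 1232.56 FPKM in Resist-Mac libraries and 447.45, 593.29, 369.87, 427.38 and 556.80 FPKM in Naive-Mac libraries. The highest Naive-Mac library lay above the lowest Resist-Mac library. The log2 change was 1.02 ± 0.29 (limma adjusted p = 0.0073), or 0.68 relative to the median of all genes, and the exact permutation test gave p = 0.0159 (adjusted 0.0600). The call was lost with median-ratio scaling, at 0.60 (limma adjusted p = 0.0877), and the change was 0.07 (limma adjusted p = 0.764) between the 2 Resist-Mac and 2 Naive-Mac libraries whose neutrophil markers did not exceed those of every naive and Resist library.

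The chain ratio parted more clearly than the levels. Fgb exceeded Fgg by 60.7 ± 14.8 times in Resist-Mac and 10.1 ± 1.66 times in Naive-Mac libraries, a 5.91-fold difference with no overlap (log2 2.56 ± 0.20, exact permutation p = 0.00794, adjusted 0.0106). The ratio was not run with the length and GC correction, under which the log2 change of Fgb alone was 0.67 (limma adjusted p = 0.0848). Fgb over Fga differed 4.61-fold (exact permutation p = 0.00794, adjusted 0.0106). Fgg over Fga was 8.91 ± 3.00 in Resist-Mac and 11.1 ± 2.72 in Naive-Mac libraries, a log2 difference of -0.36 ± 0.28 that did not pass the test (exact permutation p = 0.222).

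**Figure D2:**
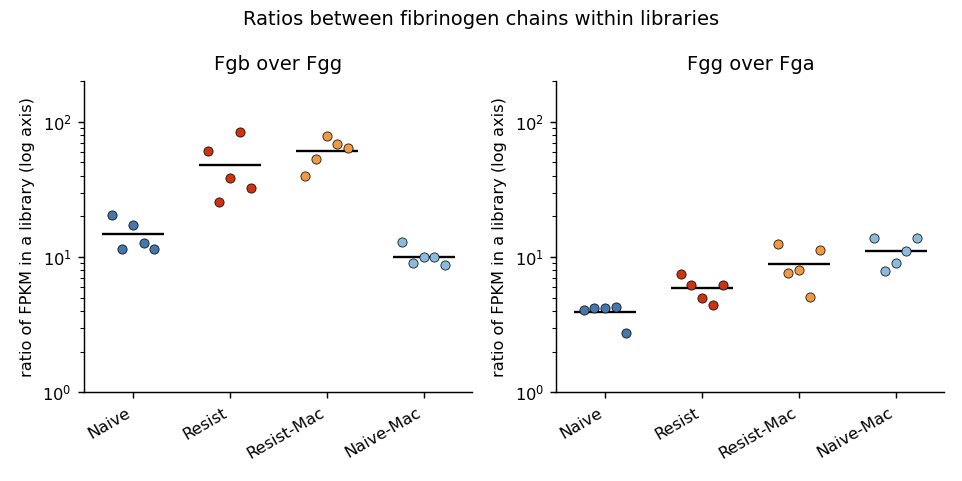
Ratio of FPKM between fibrinogen chains in each of 5 libraries per group, on a shared log axis, with the arithmetic mean as a line. The ratio of Fgb to Fgg lies between 8.67 and 20.5 in the naive and Naive-Mac libraries and between 25.6 and 83.6 in the Resist and Resist-Mac libraries. The levels of Resist-Mac and Naive-Mac come from tables of their own.

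Across macrophage depletion, Fgb was called between naive and Naive-Mac tumors and no fibrinogen chain tested was called between Resist and Resist-Mac tumors, while the contrast of changes called neither Fgb nor Fgg (limma adjusted p = 0.12 and 0.978). Naive vs. Naive-Mac called 59.7% of 9837 genes, 37.5% higher and 22.1% lower in naive tumors. Of the 8 members other than Fga and Itih2 it called 4, with Fgb and F3 higher and Hp and Orm1 lower. Median-ratio scaling moved the median of all genes there by -0.25 on the log2 scale and the split from 3691 higher and 2177 lower to 2966 higher and 2974 lower. Fgb was 2.39-fold higher in naive tumors (log2 change 1.12 ± 0.28, limma adjusted p = 0.00221, exact permutation p = 0.0159, adjusted 0.0600), and 0.84 without the neutrophil-rich libraries (limma adjusted p = 0.0792). Fgg differed by 0.60 ± 0.35 (limma adjusted p = 0.131), which passed at 0.0329 with the replicate number as a block. It was also called with the length and GC correction, at 1.48 (limma adjusted p = 0.00355), and by the noise-distribution probability, and it was 0.23 without naive replicate 5 (limma adjusted p = 0.342). Fga averaged 4.70 ± 2.21 FPKM in Naive-Mac libraries, where the highest read 8.40, below the lowest naive library. The naive libraries helped choose Fga, so this gap is a description with no test.

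Resist vs. Resist-Mac called 21.7% of 10049 genes, 9.71% higher and 12% lower in Resist tumors, and 4 of the 7 members tested of those 8, Cp higher and Hp, Lcn2 and Orm1 lower. Neither fibrinogen chain tested there passed. Fgb differed by 0.18 ± 0.37 (limma adjusted p = 0.71), with the sign turning to -0.10 without Resist replicate 4, and Fgg by 0.58 ± 0.32 (limma adjusted p = 0.168). Leaving aside the 3 neutrophil-rich Resist-Mac libraries, Fgg was 1.33 higher in Resist tumors (limma adjusted p = 0.00459). Fga averaged 2.36 ± 1.96 FPKM in Resist-Mac libraries, and its range overlapped that of Resist.

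**Figure D3:**
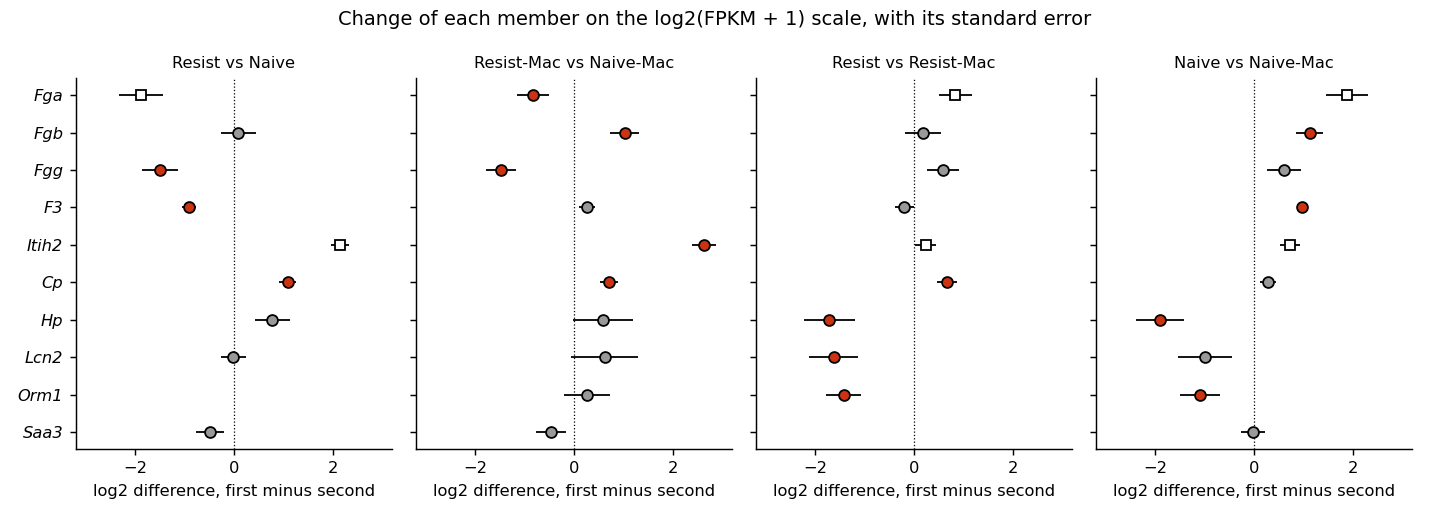
Change of each member in the 4 comparisons, as the difference of mean log2(FPKM + 1), first group minus second, with its standard error. Red circles were called, gray circles were not, and open squares are Fga and Itih2 where the libraries that chose them take part, with no test. Fgg lies on the lower side and Cp on the higher side in both comparisons of enzalutamide with no enzalutamide, and Hp, Lcn2 and Orm1 lie on the lower side in both comparisons across macrophage depletion, although Orm1 in Naive vs. Naive-Mac turned to 0.21 with the length and GC correction and Lcn2 there to 0.57 without the neutrophil-rich libraries.

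F3 encodes tissue factor, the membrane receptor for coagulation factor VII that starts the clotting cascade ending in fibrin. The naive libraries read 494.59, 472.93, 564.34, 594.02 and 490.62 FPKM, and the Resist libraries 360.57, 235.76, 231.60, 232.28 and 363.79 FPKM. All naive libraries lay above all Resist libraries, with means of 523 ± 52.7 FPKM (SD) in naive and 285 ± 70.7 FPKM in Resist tumors. F3 was 1.84-fold lower in Resist tumors (log2 change -0.90 ± 0.14, limma adjusted p = 0.00151, exact permutation p = 0.00794, adjusted 0.0450). It read 433.41, 325.09, 338.28, 311.62 and 222.31 FPKM in Resist-Mac and 277.05, 215.14, 289.56, 298.10 and 255.88 FPKM in Naive-Mac libraries. These ranges overlapped, and the log2 change of 0.26 ± 0.16 did not pass (limma adjusted p = 0.155), with a sign that turned to -0.16 under median-ratio scaling and a call under quantile normalization, at 0.68 (limma adjusted p = 0.00229).

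The change of F3 with enzalutamide differed between the groups without and with clodronate by -1.17 ± 0.22 on the log2 scale (limma adjusted p = 0.00018), although 40.7% of 9876 genes were also called in that contrast, in which batch and clodronate cannot be told apart. F3 was the only member called of the 8 tested. Naive tumors had 1.96-fold more F3 transcript than Naive-Mac tumors (log2 change 0.97 ± 0.10, limma adjusted p = 8.74e-07), whereas Resist and Resist-Mac tumors differed by -0.20 ± 0.19 (limma adjusted p = 0.42), a sign that turned to 0.31 with quantile normalization. In order of level, naive at 523 ± 52.7 FPKM stood above Resist-Mac at 326 ± 75.2, Resist at 285 ± 70.7 and Naive-Mac at 267 ± 33.1, and the ranges of these last 3 overlapped. The genes most like F3 over the 10 naive and Resist libraries were E2f2 (r = 0.975), Aimp2 (0.958), Acsl3 (0.956), Ovol1 (0.954) and Tcp1 (0.947), values that also carry the gap between the groups.

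The rest of the clotting and clot-lysis list held no call in Resist vs. Naive. Of 33 genes, 12 were tested and limma called 0, with 6 at an unadjusted p under 0.05 and 0 called by the noise-distribution probability, and with a median log2 change of 0.09 beside 0.03 for all genes. The plasminogen activator receptor gene Plaur averaged 192 ± 63.3 FPKM in naive and 179 ± 54.7 FPKM in Resist tumors, and the plasminogen activator gene Plat averaged 132 ± 10.5 and 108 ± 10.5 FPKM. Plat, with a log2 change of -0.29 (limma adjusted p = 0.0256), passed the p threshold but not the fold threshold. Between Resist-Mac and Naive-Mac tumors, 7 of 12 were called beside 46.2% of all genes, 6 higher, among them Plaur at 1.23 and the thrombin receptor gene F2r at 1.19, and 1 lower, S100a10, the plasminogen-binding partner of annexin A2, at -1.23. In Naive vs. Naive-Mac 7 of 12 were called, beside 59.7% of all genes, 6 of them higher in naive tumors. This count and the one for Resist-Mac vs. Naive-Mac share the Naive-Mac libraries. Between Resist and Resist-Mac tumors limma called 0 of 13, with 5 at an unadjusted p under 0.05 and 2 called by the noise-distribution probability.

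Itih2 encodes heavy chain 2 of inter-alpha-inhibitor, a plasma protease inhibitor whose heavy chains are transferred to hyaluronan in the matrix. The naive libraries read 2.26, 2.84, 4.05, 3.98 and 4.97 FPKM and the Resist libraries 19.96, 16.48, 18.33, 27.49 and 14.45 FPKM. The groups were far apart, as the choice of the gene implies, with means of 3.62 ± 1.07 and 19.3 ± 5.00 FPKM. In the libraries that did not choose it, Itih2 read 18.32, 17.57, 19.10, 18.75 and 8.77 FPKM in Resist-Mac and 0.87, 3.05, 1.73, 1.94 and 1.54 FPKM in Naive-Mac tumors. All Resist-Mac libraries lay above all Naive-Mac libraries, and replicate 5 was far below the other 4. The means differed 9.04-fold, with a log2 change of 2.63 ± 0.24 (limma adjusted p = 1.6e-06, exact permutation p = 0.00794, adjusted 0.0450), or 2.29 relative to the median of all genes. Across depletion the levels were 19.3 FPKM in Resist and 16.5 ± 4.36 FPKM in Resist-Mac, and 3.62 FPKM in naive and 1.83 ± 0.793 FPKM in Naive-Mac tumors.

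The genes most like Itih2 over the 10 naive and Resist libraries were Fbxo10 (r = 0.988), Adgrf5, Sort1 and Cyb5r3 (all 0.981) and Bmpr1b (0.978), values that mostly carry the gap between the groups. Its relatives were near silent: Itih4 averaged at most 0.03 FPKM in any group. Of 16 genes of inter-alpha-inhibitor and hyaluronan, 5 were tested in Resist vs. Naive and 1 was called, beside 6.35% of all genes, namely Cd44, the main hyaluronan receptor, at 12.9 ± 1.79 FPKM in Resist and 7.80 ± 0.832 FPKM in naive tumors (log2 change 0.65 ± 0.10, limma adjusted p = 0.00134). The median of the 5 was -0.20, opposite in sign to Cd44, beside 0.03 for all genes. Between Resist-Mac and Naive-Mac tumors, where 46.2% of all genes were called and 37.2% were higher, 4 of 5 were called, all higher in Resist-Mac, including the hyaluronan-binding proteoglycan gene Vcan at 1.59 and Cd44 at 1.38. In Naive vs. Naive-Mac 4 of 5 were called beside 59.7% of all genes, all higher in naive tumors. This count and the one for Resist-Mac vs. Naive-Mac share the Naive-Mac libraries. Between Resist and Resist-Mac tumors limma called 0 of 5, with 1 at an unadjusted p under 0.05 and 0 by the noise-distribution probability.

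Cp encodes ceruloplasmin, the copper-carrying ferroxidase of plasma. It read 142.31, 113.33, 113.74, 183.89 and 159.65 FPKM in naive libraries and 419.16, 271.57, 300.95, 311.20 and 220.66 FPKM in Resist libraries. Every Resist library lay above every naive library. Cp was 2.14-fold higher in Resist tumors (log2 change 1.08 ± 0.17, limma adjusted p = 0.00143, exact permutation p = 0.00794, adjusted 0.0450), and leaving out any 1 library kept the change between 0.96 and 1.19. The genes most like it were Abca5 (r = 0.977), Eola1 (0.973), the ferritin heavy chain gene Fth1 (0.973), Msln (0.971) and Rcbtb2 (0.970), values that also carry the gap between the groups.

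In Resist-Mac libraries Cp read 227.20, 172.56, 189.46, 259.28 and 123.67 FPKM and in Naive-Mac libraries 81.80, 143.41, 126.22, 123.73 and 110.62 FPKM, ranges that overlapped by the lowest Resist-Mac library. The log2 change of 0.71 ± 0.19 passed the test (limma adjusted p = 0.00591, adjusted exact permutation p = 0.0899) but was 0.29 with median-ratio scaling (limma adjusted p = 0.185), and it was 0.36 relative to the median of all genes. Cp in Resist tumors was 1.57-fold its level in Resist-Mac tumors (log2 change 0.66 ± 0.20, limma adjusted p = 0.0192, adjusted exact permutation p = 0.081), a call lost without Resist replicate 1, at 0.54, or without Resist-Mac replicate 5, at 0.51, where the fold change no longer exceeded 1.5. Naive and Naive-Mac tumors differed by 0.28 ± 0.16 (limma adjusted p = 0.128), a value that turned to -0.01 with median-ratio scaling.

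**Figure D4:**
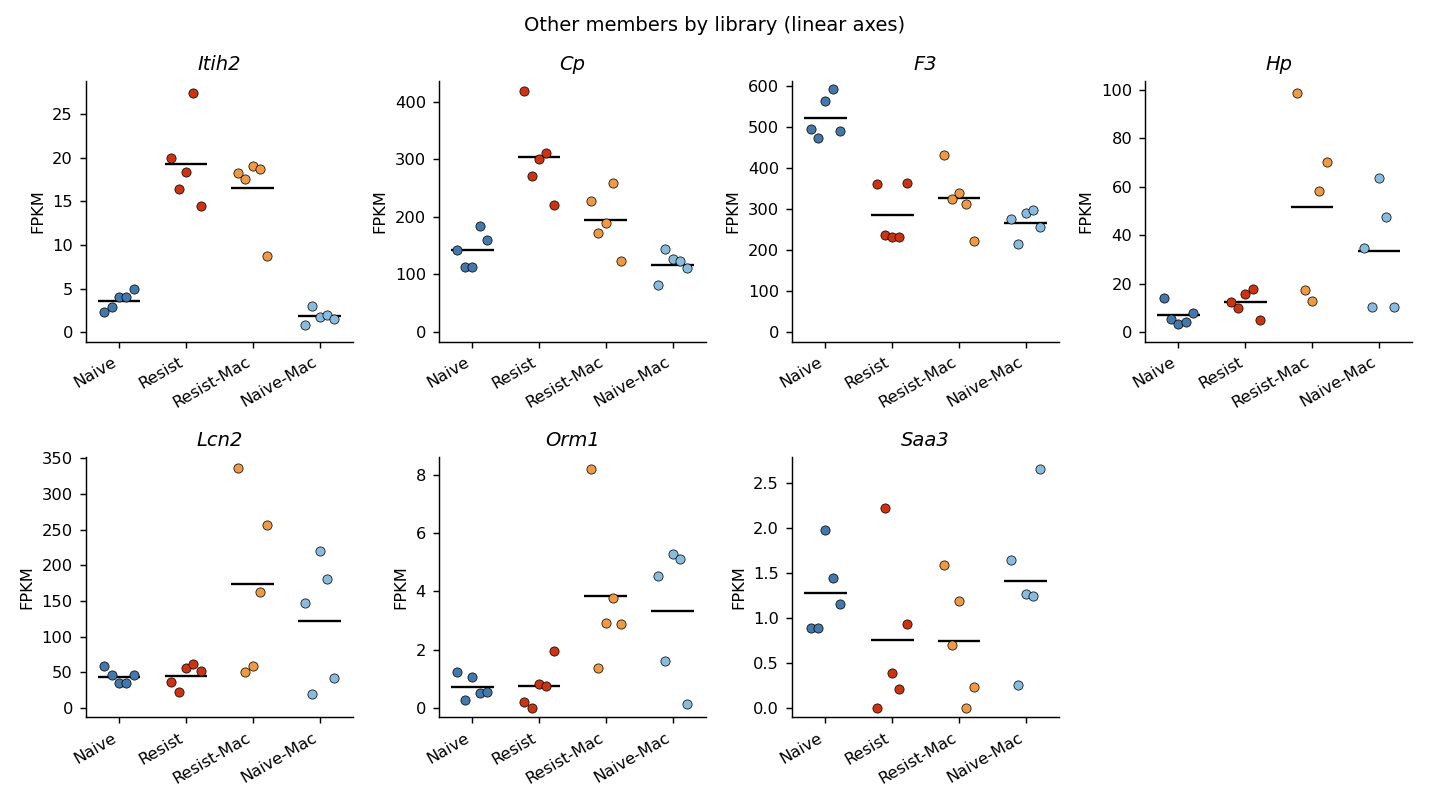
FPKM of Itih2, Cp, F3, Hp, Lcn2, Orm1 and Saa3 in each of 5 libraries per group, on linear axes whose ranges differ, with the arithmetic mean as a line. Itih2 and Cp are higher and F3 is lower in all Resist than in all naive libraries, and Hp and Lcn2 spread widely within Resist-Mac and Naive-Mac.

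The inflammatory acute-phase members Hp, Lcn2, Orm1 and Saa3 did not pass the test in Resist vs. Naive. Hp encodes haptoglobin, which captures free hemoglobin, and read 14.01, 5.54, 3.24, 4.16 and 8.0 FPKM in naive and 12.34, 10.05, 15.71, 17.95 and 5.00 FPKM in Resist libraries. The groups overlapped, with a log2 change of 0.77 ± 0.35 (limma adjusted p = 0.144), which passed without Resist replicate 5, at 1.03 (limma adjusted p = 0.0331). Lcn2 encodes lipocalin-2, which withholds iron from bacteria by binding their siderophores, and read 58.90, 45.44, 34.40, 34.45 and 45.48 FPKM in naive and 36.16, 21.70, 55.74, 60.81 and 51.98 FPKM in Resist libraries. Its log2 change was -0.01 ± 0.25 (limma adjusted p = 0.983), and leaving out 1 library moved it from -0.14 to 0.23.

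Saa3, the serum amyloid A gene expressed outside the liver, read 0.89, 0.89, 1.98, 1.44 and 1.16 FPKM in naive and 0.00, 2.22, 0.39, 0.21 and 0.93 FPKM in Resist libraries (log2 change -0.48 ± 0.28, limma adjusted p = 0.237). Orm1 encodes alpha-1-acid glycoprotein, a carrier of lipophilic molecules, and read at most 1.22 FPKM in naive and 1.94 FPKM in Resist libraries, with means of 0.724 and 0.748 FPKM (exact permutation p = 0.976). Both genes were near the lower end of what the tables hold, and no interval for counting error can be given.

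In both groups given clodronate liposomes Hp, Lcn2 and Orm1 had higher means and much wider spreads. Hp read 98.78, 17.47, 13.03, 58.11 and 69.96 FPKM in Resist-Mac and 34.88, 10.34, 63.67, 47.42 and 10.36 FPKM in Naive-Mac libraries. Lcn2 read 336.40, 50.92, 58.27, 163.14 and 257.14 FPKM in Resist-Mac and 147.45, 19.15, 219.59, 180.67 and 42.46 FPKM in Naive-Mac libraries. The neutrophil markers summed, in the same replicate order, to 8917, 1008, 414, 2512 and 4971 FPKM in Resist-Mac and 4932, 67.5, 6245, 3925 and 780 FPKM in Naive-Mac libraries. The 3 libraries of each group with the highest marker sums were thus the 3 highest for Hp and for Lcn2. Lcn2 and Hp are themselves known transcripts of maturing neutrophils.

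Orm1 read 8.22, 1.37, 2.93, 3.76 and 2.87 FPKM in Resist-Mac and 4.54, 1.60, 5.29, 5.10 and 0.14 FPKM in Naive-Mac libraries. In deviations from the group means, the neutrophil sum had an r of 0.934 with Lcn2, 0.825 with Hp and 0.617 with Orm1 over the 20 libraries. Over the 10 naive and Resist libraries these values were 0.921, 0.637 and 0.526. The points share library and sort.

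**Figure D5:**
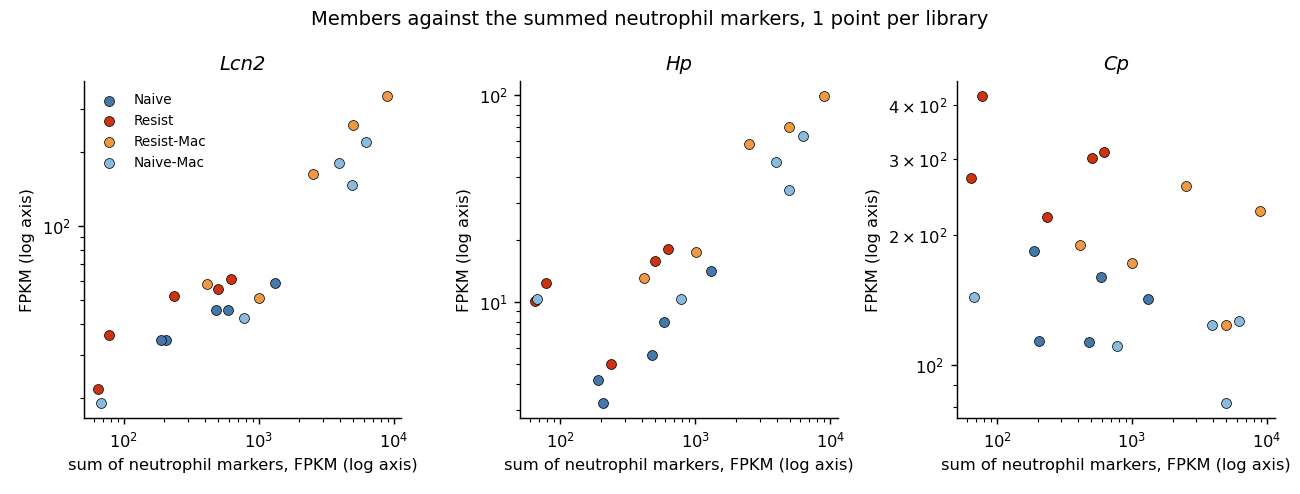
FPKM of Lcn2, Hp and Cp against the summed FPKM of 16 neutrophil markers, both on log axes, with 1 point per library colored by group. Lcn2 and Hp are high in the libraries with the highest marker sums, 6 of which, from the Resist-Mac and Naive-Mac groups, exceed every naive and Resist library, whereas the 4 highest Cp values are Resist libraries.

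In Resist vs. Resist-Mac the log2 changes were -1.72 ± 0.51 for Hp (limma adjusted p = 0.0171), -1.63 ± 0.50 for Lcn2 (limma adjusted p = 0.0189) and -1.42 ± 0.35 for Orm1 (limma adjusted p = 0.00648). By the exact permutation test their adjusted p-values were 0.104, 0.135 and 0.0600. Leaving aside the 3 neutrophil-rich Resist-Mac libraries, none of the 3 genes passed, at -0.39 for Hp, -0.35 for Lcn2 and -0.91 for Orm1 (limma adjusted p = 0.41, 0.411 and 0.0785). In Naive vs. Naive-Mac, Hp differed by -1.91 ± 0.49 (limma adjusted p = 0.00304) and Orm1 by -1.11 ± 0.41 (limma adjusted p = 0.0237), with adjusted exact permutation p-values of 0.0899 and 0.144. Lcn2 differed by -1.0 ± 0.54 and did not pass (limma adjusted p = 0.107). It was called at -1.53 without Naive-Mac replicate 2 (limma adjusted p = 0.00253), at -1.29 with median-ratio scaling (limma adjusted p = 0.0484) and by the noise-distribution probability. Saa3 was called under quantile normalization alone among the scalings, at -0.66 (limma adjusted p = 0.0403). Without the 3 neutrophil-rich Naive-Mac libraries Hp stood at -0.66 (limma adjusted p = 0.159) and Lcn2 turned to 0.57 (limma adjusted p = 0.0931), and Orm1 fell under the filter. Orm1 also lost its call without any 1 of 4 libraries and, with the length and GC correction, turned to 0.21 (limma adjusted p = 0.672). In Resist-Mac vs. Naive-Mac none of Hp, Lcn2, Orm1 and Saa3 was called, with log2 changes of 0.58, 0.62, 0.27 and -0.47 (limma adjusted p = 0.423, 0.448, 0.636 and 0.192). Without the neutrophil-rich libraries Lcn2 was called at 0.91 (limma adjusted p = 0.0212), and Saa3 was called at -1.05 with quantile normalization (limma adjusted p = 0.00944) and at -0.69 without Naive-Mac replicate 2 (limma adjusted p = 0.0485).

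Of 31 other positive acute-phase genes, 5 were tested in Resist vs. Naive and 2 were called, both higher, beside 6.35% of all genes. Lbp, the lipopolysaccharide-binding protein gene, averaged 30.1 ± 8.75 FPKM in Resist and 11.7 ± 3.76 FPKM in naive tumors (log2 change 1.28 ± 0.23, limma adjusted p = 0.00295). Steap4, a metalloreductase gene, averaged 40.4 ± 13 and 12.5 ± 3.25 FPKM (log2 change 1.59 ± 0.23, limma adjusted p = 0.000932). The median of the 5 was 0.12 beside 0.03 for all genes. Most of the list was near silent, and Itih4, Serpina3n and Hamp averaged at most 0.096 FPKM in any group. In Resist-Mac vs. Naive-Mac 1 of 5 was called, Lbp at 0.91 (limma adjusted p = 0.00108), beside 46.2% of all genes. The counts were 3 of 5 beside 21.7% in Resist vs. Resist-Mac and 1 of 5 beside 59.7% in Naive vs. Naive-Mac.

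Of 28 negative acute-phase and other liver plasma protein genes, 7 were tested in Resist vs. Naive and 1 was called, beside 6.35% of all genes, namely Selenop, the selenium carrier gene, at 58.2 ± 5.63 FPKM in Resist and 36.9 ± 4.80 FPKM in naive tumors (log2 change 0.65 ± 0.10, limma adjusted p = 0.00109). Clusterin (Clu) averaged 87.4 and 71.3 FPKM and did not pass (limma adjusted p = 0.0948). With clodronate in both groups 2 of 7 were called beside 46.2% of all genes, Clu higher at 1.03 and Apoa1 lower at -0.99. Between naive and Naive-Mac tumors 3 of 7 were called beside 59.7% of all genes, and 1 of 8 beside 21.7% in Resist vs. Resist-Mac.

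Of 29 genes that carry cytokine signals to acute-phase promoters, 22 were tested in Resist vs. Naive and 4 were called, beside 6.35% of all genes. Socs3, the feedback inhibitor of STAT3 signaling, averaged 18.8 ± 7.36 FPKM in Resist and 8.11 ± 1.84 FPKM in naive tumors (log2 change 1.06 ± 0.24, limma adjusted p = 0.00978). The IL-1 receptor gene Il1r1 rose by 0.74 (limma adjusted p = 0.00159) and the IL-11 receptor gene Il11ra1 by 0.64 (limma adjusted p = 0.0316). Il1b, encoding IL-1 beta, fell by 1.60 (limma adjusted p = 0.00761), from 12.7 ± 3.50 to 4.03 ± 2.74 FPKM, while the neutrophil markers, a list that also holds Il1b, had median sums of 479 FPKM in naive and 236 FPKM in Resist libraries, and their part in that fall was not tested. Stat3 averaged 16.5 FPKM in naive and 14.5 FPKM in Resist tumors (limma adjusted p = 0.116), and Il6 itself averaged at most 0.118 FPKM in any group. The median of the list was 0.10 beside 0.03 for all genes.

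In Resist-Mac vs. Naive-Mac 15 of 23 genes of that list were called, all higher, beside the 37.2% of all genes called higher. They were led by Cebpb at 2.06, Il6ra at 1.83, Nfkb1 at 1.58 and Stat3 at 1.57. With the length and GC correction, all called genes there went from 3631 higher and 878 lower to 1238 higher and 1322 lower. The list was not counted with that correction. Between naive and Naive-Mac tumors 12 of 22 were called, all higher in naive tumors, beside 59.7% of all genes called and 37.5% called higher, and in Resist vs. Resist-Mac 6 of 23, 4 higher and 2 lower, beside 21.7%. Of 10 liver transcription factor genes 2 were tested, Foxa1 and Nr1h4. Nr1h4, the bile acid receptor gene, was called in Resist vs. Naive at 0.59 ± 0.15 (limma adjusted p = 0.0153). Foxa1 was called in Resist-Mac vs. Naive-Mac at 1.40 (limma adjusted p = 0.000171). In Naive vs. Naive-Mac 1 of 2 was called beside 59.7% of all genes, and limma called 0 of 2 between Resist and Resist-Mac tumors, with 0 at an unadjusted p under 0.05 and 0 by the noise-distribution probability. Hnf4a, the factor that defines hepatocytes, averaged 0.008 FPKM in naive libraries.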

How the data were processed

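Sorted MycCaP-Bo tumor cells were sequenced after oligo-dT enrichment in 5 libraries per group. The authors deposited FPKM per gene and library, as log2(FPKM + 1) for naive and Resist tumors and as plain FPKM in the Resist-Mac and Naive-Mac tables. The submitters' processing notes name Bowtie2 and mm9, and the quantification tool and annotation are not given in the sources used here. The log2 table was turned back to FPKM, which gave numbers with 2 decimals, within 0.0001 FPKM, for 100% of its values. The authors' 752 BGI_novel genes were removed, and 16613 of 17485, 14053 of 14077 and 15827 of 15867 identifiers had a RefSeq symbol. Between 12087 and 14056 genes were above 0 per library, and depth is unknown.

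Each comparison used its own 2 groups, genes averaging 1 FPKM or more and log2 values after adding 1, with limma 3.58.1 in R 4.3.3 (trend in the prior variance, Benjamini-Hochberg over all genes). A call needed a change over 1.5-fold and an adjusted p under 0.05. Fold changes on this scale understate those of low genes. The study's NOISeq was replaced by limma, with a noise-distribution probability as an alternative. Exact permutation tests, two-sided, were run for single genes and ratios (scipy 1.17.1). Replicates are libraries of pooled mice, and p-values measure the spread between them. The procedure was tested on simulated data. The genes named are the 10 members, up to 4 called genes of each list and the 5 genes most like a member. Results for a few genes and 1 motif are not reported here. The members and lists were chosen with earlier results of these data known, and the lists are described by counts and medians with no set test. Promoters come from a RefSeq table of GRCm38.p6, which differs from mm9, and matched 8 of 10 members. Alternatives were other pseudocounts, filters, scalings, thresholds and fits, a length and GC correction, the replicate number as a block and leaving out each library. The chain ratios and the omission of 6 neutrophil-rich libraries, those whose neutrophil markers exceed every naive and Resist library, were added after seeing the data. The column names of these 6 carry other number tags than the remaining Resist-Mac and Naive-Mac libraries, and the meaning of the tags is not given.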

Additional observations from a re-analysis of the deposited data

Results flagged for a closer look

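Groups of 5 libraries were checked for 1 library far from the rest, for each of the 10 members in the 4 groups, and chance flags about 1 in 20 of such groups, or 2 of the 40. In 6 of them 1 library stood apart. Naive replicate 5 was the highest naive library for all 3 fibrinogen chains, at 73.74 FPKM for Fga, 2310.61 FPKM for Fgb and 203.02 FPKM for Fgg. Resist replicate 4 was the highest Resist library for Fgb, at 2409.99 FPKM. It also had the highest hepatocyte marker sum of all libraries, at 49.2 FPKM, whose part was not tested. Resist-Mac replicate 4 was the highest Resist-Mac library for Fga, at 5.82 FPKM. Resist-Mac replicate 5 was the lowest Resist-Mac library for Itih2, at 8.77 FPKM.

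The change of F3 between Resist and naive tumors, minus that between Resist-Mac and Naive-Mac tumors, was -1.17 on the log2 scale (limma adjusted p = 0.00018). All 5 naive libraries were above all 5 Resist libraries, whereas Resist-Mac and Naive-Mac overlapped.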

How the results depend on the processing

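In Resist vs. Naive the 3 calls among the members (Fgg, Cp and F3) held under every alternative run except a fold change over 2, which F3 did not reach. Depth is unknown and the 5 libraries per group limit precision, and in the other comparisons table, batch and treatment cannot be told apart. The cause of the changes below was not tested.

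Counts of all genes called moved to 392 with a mean of at least 5 FPKM, where fewer genes were tested, 219 with a fold change over 2 and 360 with the noise-distribution probability in Resist vs. Naive, to 481 and 1079 with the last 2 and 879 with the length and GC correction in Resist vs. Resist-Mac, to 3659, 3627 and 3561 in Naive vs. Naive-Mac, to 2335, 1455 and 2560 in Resist-Mac vs. Naive-Mac, and to 1929 (fold change over 2) and 2376 (length and GC) in the difference of changes. Quantile normalization split the calls into 381 higher and 167 lower, against 531 and 112, in Resist vs. Naive, and 981 and 808, against 976 and 1205, in Resist vs. Resist-Mac. Members called became 1 (Fgg) with the length and GC correction and 2 (Fgg and Cp) without the neutrophil-rich libraries in Resist vs. Resist-Mac, 1 (F3) without those libraries in Naive vs. Naive-Mac, and 3 in Resist-Mac vs. Naive-Mac with median-ratio scaling or the length and GC correction (Fga, Fgg and Itih2) or a fold change over 2 (Fgb, Fgg and Itih2). In the difference of changes they became 2, Cp joining F3 with median-ratio scaling or the length and GC correction and Fgb joining F3 without Resist replicate 4, in a leave-one-out range of 1 to 2.

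Values that turned in sign, with 1 exception not called, were these. In Resist vs. Naive, Lcn2 ran from -0.14 to 0.23 and Fgb from -0.20 to 0.38 over left-out libraries, Lcn2 was 0.050 in the noise-distribution fit, and the differences in mean log2(FPKM + 1) were -0.010 for Lcn2 and -0.051 for Orm1 against higher mean FPKM in Resist. In Resist vs. Resist-Mac, Fgb ran from -0.10 to 0.45, F3 was 0.31 with quantile normalization and 0.19 with the length and GC correction, and Saa3 was -0.036 on the log2 scale. In Naive vs. Naive-Mac, Saa3 ran from -0.24 to 0.14 and was 0.072 with a pseudocount of 0.1, 0.32 with the length and GC correction and 0.065 without the neutrophil-rich libraries, where Lcn2 was 0.57. Cp was -0.0086 with median-ratio scaling and -0.25 with the length and GC correction, and Orm1, the exception, was 0.21 with that correction. In Resist-Mac vs. Naive-Mac, Orm1 ran from -0.15 to 0.49 and was -0.029 with median-ratio scaling and -0.40 with quantile normalization, and F3 was -0.16 with median-ratio scaling.

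With the replicate block, members called were 3, 4, 5 and 5 in Resist vs. Naive, Resist vs. Resist-Mac, Naive vs. Naive-Mac and Resist-Mac vs. Naive-Mac, with Fgg added in Naive vs. Naive-Mac, and all genes called were 624, 2228, 5888 and 4534. The r between same-numbered libraries ran from -0.16 to -0.03, -0.27 to 0.36, -0.16 to 0.23 and -0.38 to 0.32 in these comparisons, with 0, 2, 1 and 3 of 5 pairs over 0.1, and 0, 1, 0 and 2 libraries correlated best with their own number, so they share only a number.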
